A study of Mus musculus with 3 samples.

Results

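The epithelial sodium and chloride transport genes Scnn1a, Scnn1b, Scnn1g, Cftr, Atp1b1, Slc12a2, Sgk1 and Nedd4l were followed in EpH4-PR cells, an epithelial line of the mouse mammary gland. They were chosen by name and not by their values, though earlier results of these data were known. Every non-control probe of the array whose listed gene name was one of these 8 symbols was taken, which gave 7 of the 29273 names on the array and 10 of 41174 probes. No probe carried the name Sgk1. A probe whose RefSeq accession belongs to Sgk1 is listed under the older name Sgk, and it is given beside the 10 as a probe outside the name match.

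EpH4-PR cells are EpH4 cells stably transfected with the progesterone receptor, whose A isoform the study names, and clones were selected after transfection. Whether the RNA came from 1 clone, and which promoter drives the receptor, are not given in the sources used here. The cells were grown in DMEM with 10% FBS to about 75% confluence, with no hormone named for the array samples. RNA of EpH4-PR cells was labelled with Cy5 and hybridised on 3 arrays, each against a commercial mouse reference RNA labelled with Cy3. Arrays of the control line with empty vector were not analysed here, so each ratio sets EpH4-PR RNA against the reference RNA and shows no effect of the receptor. No array had the dyes exchanged, and a difference between RNAs cannot be told apart from a difference between dyes. The labels number the arrays 1 to 3 and do not say that they are separate cultures, so the p-values measure only the spread between these arrays, which may be technical.

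In epithelia that absorb sodium, the ion enters through the epithelial sodium channel, which is built from an alpha, a beta and a gamma subunit encoded by Scnn1a, Scnn1b and Scnn1g, and leaves through the Na,K-ATPase. In epithelia that secrete chloride, the ion enters from the blood side through the cotransporter NKCC1, encoded by Slc12a2, and leaves through the channel encoded by Cftr. The kinase Sgk1 and the ubiquitin ligase Nedd4l act on the sodium channel in opposite ways: Nedd4l tags the channel for removal from the membrane, and Sgk1 phosphorylates Nedd4l and so keeps it from doing so. In the mammary gland sodium and chloride transport takes part in setting the ion content of milk and of the duct fluid.

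On these arrays most of the transport probes were dim. The scale for dim spots came from the 314 negative control spots of each array, which match no mouse transcript. Their median intensity in the EpH4-PR channel was 72.6, 74.1 and 57.3 on replicates 1, 2 and 3, with a 95th percentile of 85.9, 87.4 and 62.9. In the reference channel the median was 119, 121 and 91.8 and the 95th percentile 162, 168 and 107. In EpH4-PR RNA the scanner software marked 15, 16 and 2 of these spots as well above background, and in reference RNA 168, 149 and 146, so that mark alone does not separate a dim reference signal from a negative control. Log2 ratios were correlated between arrays at 0.923 to 0.952 over all probes, and the median ratio over all probes was -0.01.

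Of the 10 probes, 7 lay above the 95th percentile of the negative controls on all 3 arrays in EpH4-PR RNA, beside 66.8% of all probes. In the reference RNA only 2 of the 10 did so, those of Atp1b1 and Slc12a2, beside 33.2% of all probes. EpH4-PR RNA therefore gave a reading over the negative controls for at least 1 probe of Scnn1a, Scnn1b, Cftr, Atp1b1, Slc12a2 and Nedd4l, and Scnn1g passed that level on 2 of 3 arrays. In bulk RNA, fewer cells that express a gene and less of its RNA in each cell cannot be told apart.

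**Figure D1:**
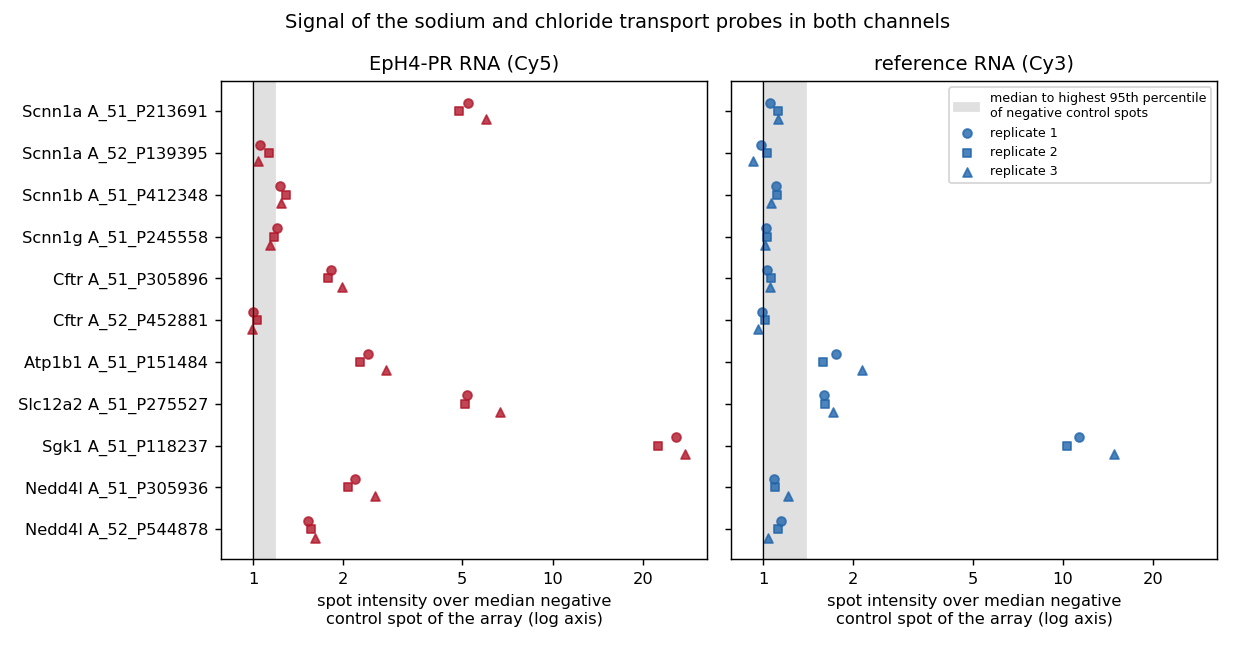
Spot intensity of the 11 transport probes, divided by the median negative control spot of the same array, on a log axis, with EpH4-PR RNA on the left and reference RNA on the right. Each point is 1 array and the grey band runs from the median to the highest 95th percentile of the negative controls; most probes lie right of the band in EpH4-PR RNA and inside it in reference RNA, while Sgk1 lies right of it in both.

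The alpha subunit of the sodium channel gave the highest ratio among the transport genes. Scnn1a probe A_51_P213691 read 378, 362 and 344 in EpH4-PR RNA and 126, 136 and 103 in the reference RNA on replicates 1, 2 and 3. Before normalization all 3 EpH4-PR readings were higher than all 3 reference readings, an order that also holds the difference between the dyes. The log2 ratios were 1.54, 1.22 and 1.26, with a mean of 1.34 ± 0.17 (SD, n = 3) and an SE of 0.075 (limma with Benjamini-Hochberg adjustment over all probes, adjusted p = 0.000143). The reference readings were as dim as the negative controls, of which 80, 29 and 25 of 314 were at or above them. After subtraction of the median negative control, 305, 288 and 287 units were left in EpH4-PR RNA and 6.56, 14.6 and 11.2 in the reference RNA, so the ratio gives a direction, and its size hung on the background correction. It ranged from 1.24 to 2.69 over 13 other settings, at an adjusted p between 7e-08 and 0.0293, and was past the threshold in all of them.

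A second Scnn1a probe gave no such reading. Probe A_52_P139395 read 76.7, 83.5 and 59.5 in EpH4-PR RNA and 117, 125 and 85.0 in the reference RNA, and was well above background in neither channel on any array. Its mean log2 ratio was -0.02 ± 0.04 (SD, n = 3; adjusted p = 0.783 by limma). That ratio holds background readings on both sides, so no difference between the Scnn1a probes is given. Where each probe lies in the transcript was not analysed here.

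The beta and gamma subunits, which join the alpha subunit in the full channel, lay close to the negative controls. Scnn1b, by probe A_51_P412348, read 89.1, 95.9 and 70.7 in EpH4-PR RNA, above the 95th percentile of the negative controls on each array. Its reference readings of 132, 135 and 97.3 were below that level. After subtraction of the median negative control, EpH4-PR RNA kept 16.6, 21.7 and 13.5 units and the reference RNA 12.1, 13.1 and 5.44. The mean log2 ratio was -0.06 ± 0.07 (SD, n = 3; adjusted p = 0.306 by limma), and it was -0.25 with median centring (limma adjusted p = 0.00156). Scnn1g, by probe A_51_P245558, read 87.3, 87.3 and 65.4 in EpH4-PR RNA and 122, 125 and 93.1 in the reference RNA. With the median negative control subtracted, 14.8, 13.1 and 8.13 units were left in EpH4-PR RNA and 2.43, 3.62 and 1.31 in reference RNA. The mean log2 ratio of Scnn1g was 0.04 ± 0.02 (SD, n = 3; adjusted p = 0.451 by limma), and it was -0.20 with median centring (limma adjusted p = 0.00495). Median centring also gave -0.26 for Scnn1a probe A_52_P139395, which held background readings in both channels. These negative values therefore do not show lower beta or gamma RNA. Intensities of different probes are not set against each other here, since each probe has its own brightness, and no ratio of alpha to beta or gamma transcripts can be read from them.

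Cftr, the chloride channel of the apical membrane, also had a probe with a ratio above 0. Probe A_51_P305896 read 132, 132 and 114 in EpH4-PR RNA, all above the negative controls' 95th percentile, and 123, 129 and 97.0 in the reference RNA, all below it. Of the 314 negative control spots, 113, 55 and 56 were at or above these reference readings. The size of the ratio therefore hung on the background correction. The log2 ratios were 0.59, 0.37 and 0.36, with a mean of 0.44 ± 0.13 (SD, n = 3) and an adjusted p of 0.00367 by limma. The ratio was above 0 on all 3 arrays but under the log2 limit of 1 set for a call. It reached 1.02 with a normexp offset of 0 and 1.09 in the scanner software's own ratio, which take it past that limit. The other Cftr probe, A_52_P452881, read 72.7, 76.6 and 56.7 in EpH4-PR RNA and was well above background in neither channel on any array. Its mean log2 ratio of -0.14 ± 0.03 (SD, n = 3) had an adjusted p of 0.0454 by limma, which rose to between 0.0516 and 0.229 when any 1 array was left out. Since it holds background readings on both sides, no difference between the Cftr probes is given.

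Slc12a2 and Atp1b1, which act at the blood side of the cell, were measured above the negative controls in both RNAs. Slc12a2, which encodes the cotransporter of sodium, potassium and chloride, read 375, 377 and 384 in EpH4-PR RNA and 191, 195 and 157 in the reference RNA by probe A_51_P275527. Before normalization every EpH4-PR reading was above every reference reading, an order that also holds the difference between the dyes. The log2 ratios were 0.44, 0.38 and 0.52, with a mean of 0.45 ± 0.07 (SD, n = 3) and an adjusted p of 0.00135 by limma. With the arrays centred on their median in place of loess, the mean was 1.24 and past the limit for a call.

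Atp1b1, the beta subunit that takes the Na,K-ATPase to the membrane, was the transport gene with the lowest ratio among the 10 probes. Probe A_51_P151484 read 175, 168 and 159 in EpH4-PR RNA and 209, 193 and 196 in the reference RNA. The negative controls also read lower in the EpH4-PR channel, and after subtraction of their median 102, 94.3 and 102 units were left in EpH4-PR RNA and 89.1, 71.6 and 104 in the reference RNA, so that EpH4-PR RNA was the higher one on 2 of 3 arrays before normalization. After loess the log2 ratios were -0.64, -0.55 and -0.99, with a mean of -0.72 ± 0.23 (SD, n = 3) and an adjusted p of 0.00272 by limma. Its size depended on the processing, from -0.17 with median centring to -1.17 in the scanner software's ratio.

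Sgk1, the kinase induced by corticosteroids and serum, was far above the negative controls in both channels. Probe A_51_P118237, listed as Sgk, read 1876, 1674 and 1588 in EpH4-PR RNA and 1352, 1258 and 1360 in the reference RNA. Before normalization the EpH4-PR readings were the higher ones on every array. Loess normalization removes the typical difference between the channels at each brightness, whether it comes from the dyes or from the RNAs. After loess the log2 ratios were -1.01, -1.01 and -1.25. The mean was -1.09 ± 0.14 (SD, n = 3) with an SE of 0.064, a 2.13-fold lower level (adjusted p = 0.000169 by limma). With median centring, which removes 1 difference between the channels for the whole array, the mean reversed to 0.25 (limma adjusted p = 0.0102). The direction for Sgk1 was therefore set by the normalization, and which of the scalings holds was not tested.

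Nedd4l, the ligase that Sgk1 acts on, had a pair of probes. Probe A_51_P305936 read 159, 154 and 147 in EpH4-PR RNA and 130, 133 and 111 in the reference RNA. The log2 ratios of 0.65, 0.44 and 0.26 had a mean of 0.45 ± 0.19 (SD, n = 3; adjusted p = 0.00886 by limma), and all 3 were above 0. Of the 314 negative control spots, 48, 30 and 13 were at or above the reference readings of this probe. Those readings passed the 95th percentile of the negative controls on 1 of 3 arrays, and the reference readings of the other Nedd4l probe did so on 0 of 3. Probe A_52_P544878, matched to a different Nedd4l transcript record, read 111, 116 and 92.1 in EpH4-PR RNA and 137, 137 and 95.5 in the reference RNA, with a mean log2 ratio of 0.15 ± 0.13 (SD, n = 3; adjusted p = 0.104 by limma). The Nedd4l probes differed by 0.56 and 0.38 on replicates 1 and 2 and by -0.04 on replicate 3, a spread as large as their mean difference of 0.30 ± 0.31 (SD, n = 3).

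**Figure D2:**
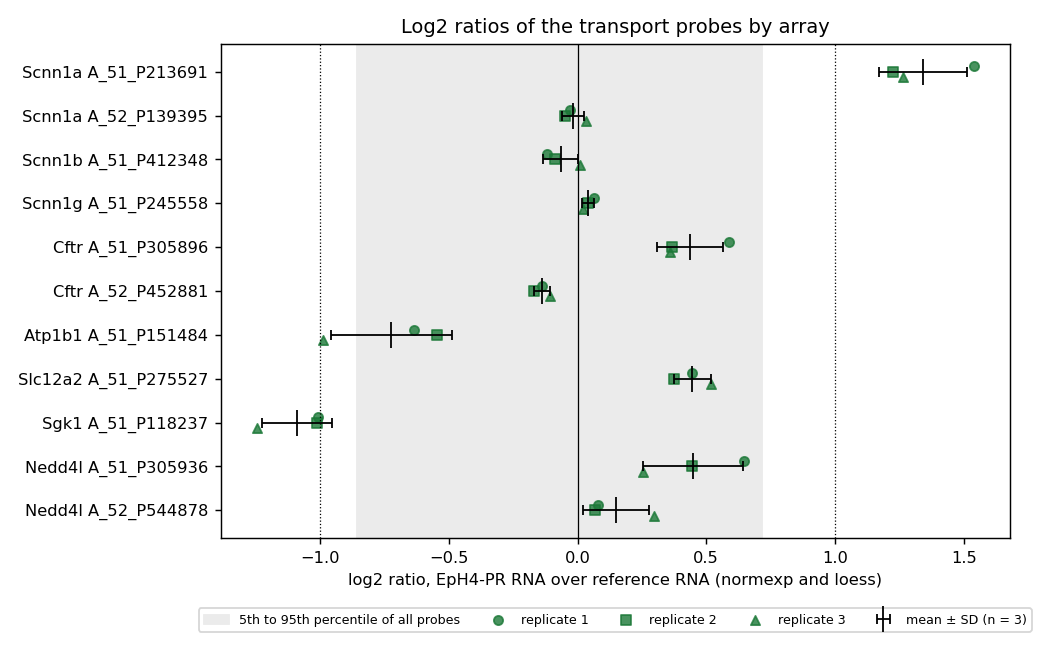
Log2 ratio of EpH4-PR RNA over reference RNA for the 11 transport probes. Points are the 3 arrays and the black line with bar is the mean ± SD; the Scnn1a probe A_51_P213691 lies above 1 on every array and the Sgk1 probe below -1, while the others lie between these limits.

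Set against all probes, the 10 transport probes held 1 called higher in EpH4-PR RNA, the Scnn1a probe A_51_P213691, where 2.26% of all probes were called so. A call needed an adjusted p under 0.05 by limma together with a mean log2 ratio of 1 or more, or of -1 or less. None of the 10 was called lower, where 3.83% of all probes were; at an unadjusted p under 0.05 the count was 2 below 0 and 0 past the log2 limit, and the methods' t-test also gave 0. Of all 41174 probes, 932 were called higher and 1578 lower, so that 37.1% of the calls were higher, a share that was 90.9% with median centring and 48.2% in the scanner software's ratio. By the adjusted p alone, 4 of the 10 were higher (25.7% of all probes) and 2 lower (24.6% of all probes). With so few probes, these counts do not set the transport genes apart from the rest of the array. Their median log2 ratio was 0.09, beside -0.01 for all probes. On all 3 arrays, 6 of the 10 probes had a ratio above 0 and 2 had a ratio below 0. Sgk1 lay outside the 10 and was called lower.

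Under the methods' t-test with Benjamini-Hochberg adjustment, which estimates each probe's spread from its own 3 arrays, the adjusted p passed 0.05 for Cftr (0.0780), Atp1b1 (0.0873) and Nedd4l (0.125), by probes A_51_P305896, A_51_P151484 and A_51_P305936, and for Cftr probe A_52_P452881 (0.0559). The calls for Scnn1a and Sgk1 were also made by that test. No single array made the Scnn1a call, whose mean lay between 1.24 and 1.40 with any 1 array left out.

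**Figure D3:**
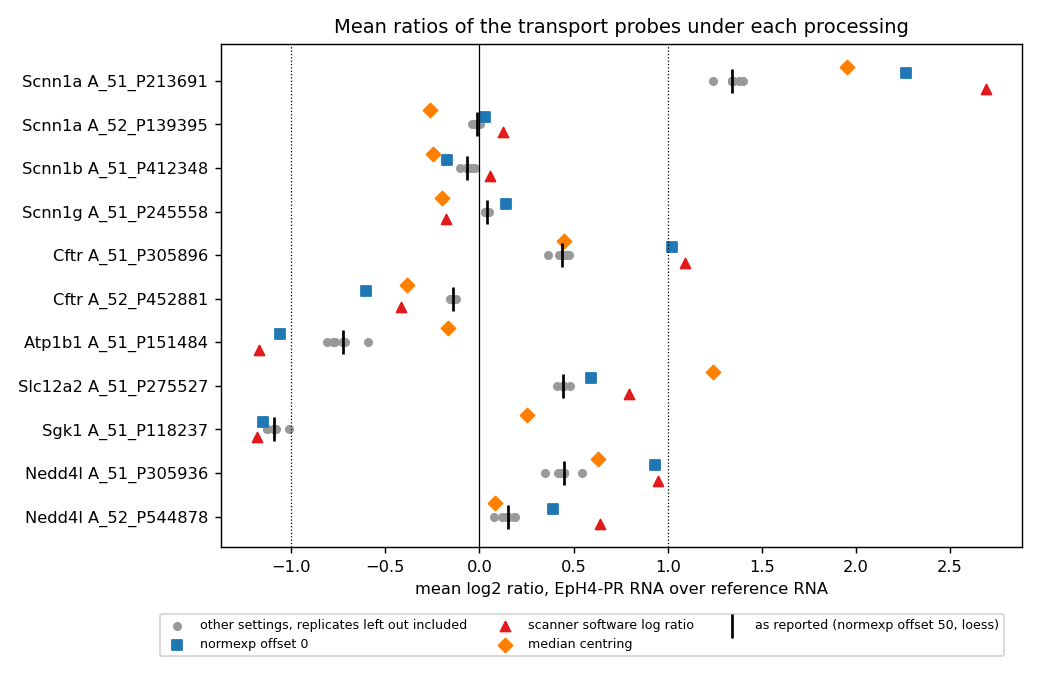
Mean log2 ratio of each transport probe under the reported processing (black line) and under the other settings (points). Scnn1a probe A_51_P213691 stayed above 1 throughout, and Sgk1 moved from -1.09 to 0.25 with median centring.

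The transport genes were then set beside 95 other genes of ion transport in 10 lists, of which 93 had a matched probe. Of these 93 genes, 7 had a probe called higher, 6 a probe called lower and 80 neither. Over all gene names on the array, 2.78% had a probe called higher and 4.83% a probe called lower; genes with several probes have more chances of a call, and the lists hold few genes each. With median centring 33 of the 93 were higher and 4 lower. By probe, 9 of 149 were called higher (6.04%) and 7 lower (4.70%), and the median log2 ratio of the 149 was 0.07. The direction of each called probe, of these lists and of the markers given after them, was kept under normexp offset 0, median centring, the scanner software's ratio, median spot intensities and a negative control background, except for 1 Ndfip1 probe with median centring. The size of the ratio was not always kept, as given below for normexp offset 0.

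Proteases that cleave and so activate the sodium channel, and the inhibitors of those proteases, had 3 of 7 genes called higher and 0 lower, and 5 of 7 higher with median centring, normexp offset 0 or the scanner software's ratio. Tmprss2, a serine protease of the epithelial surface, had log2 ratios of 1.98 ± 0.16 and 1.54 ± 0.18 (SD, n = 3) by its probes. With normexp offset 0 these came to 3.48 and 2.42. The former probe was well above background in the reference RNA on only 1 of 3 arrays. St14, which encodes matriptase, had 1.82 ± 0.13 by probe A_51_P282837 and 0.29 ± 0.10 by probe A_52_P459505, of which only the former was called. Spint1, which encodes an inhibitor of matriptase, had 1.80 ± 0.28 and 1.70 ± 0.49, which came to 3.95 and 2.12 with normexp offset 0. Prss8, the prostasin that cleaves the gamma subunit, had 0.68 ± 0.12 and was not called (limma adjusted p = 0.000672). The rest of the list was not called either. Furin had -0.05 ± 0.07 (limma adjusted p = 0.443) and Tmprss4 had 0.21 ± 0.21 (limma adjusted p = 0.0976), while Spint2 had 0.94 ± 0.05 and 0.63 ± 0.19. St14, Spint1, Prss8, Furin, Tmprss4 and Spint2 were named after their values were seen.

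Among the other subunits and Fxyd regulators of the Na,K-ATPase that are reported here, 0 of 12 genes were called higher and 1 lower, beside the Atp1b1 ratio of -0.72. With median centring 2 of the 12 were called higher and 1 lower. Fxyd5, a small membrane protein that binds the pump, was called lower after loess at -2.27 ± 0.05 (limma adjusted p = 1.71e-05). The acid-sensing relatives of the sodium channel had 0 of 5 genes called, with ratios from -0.67 to 0.06.

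The lists of genes related to Sgk1 and to Nedd4l gave few calls after loess, while with median centring 2 of 7 and 8 of 10 of their genes were called higher. Of 7 genes of corticosteroid receptors, kinases and signalling, 1 was called lower: Tsc22d3, a glucocorticoid-induced gene, at -1.75 ± 0.13 (SD, n = 3) by probe A_51_P235821 and -0.82 ± 0.11 by the other. Of 10 Nedd4-type ligases and their partners, Smurf2, a ligase of the same family, was called higher by 1 of its 3 probes, at 1.14 ± 0.03. Ndfip1, an adaptor that activates Nedd4-type ligases, had -1.39 ± 0.03, -1.21 ± 0.01 and -0.65 ± 0.02, of which the first 2 were called lower. With median centring the called probes came to 0.02 (limma adjusted p = 0.673) and -0.01 (adjusted p = 0.829), so neither call was kept, and the third probe came to 0.39.

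Beside Slc12a2, the cation-chloride cotransporters and Wnk kinases had 0 of 12 genes called higher and 2 lower, or 3 higher and 1 lower with median centring. Slc12a4, a potassium and chloride cotransporter that lets chloride out of the cell, was at -2.56 ± 0.09 (SD, n = 3), and Slc12a5, its relative known from neurons and named after its values were seen, was at -1.50 ± 0.14, which became -0.88 and was no longer called with median centring. Beside Cftr, the other chloride channels and exchangers had 1 of 20 genes called higher, Ano1, the calcium-activated chloride channel, at 1.67 ± 0.05. Lrrc8a, a subunit of the volume-regulated anion channel, was the 1 called lower, at -2.98 ± 0.17. Of 7 partners of Cftr, Ezr, which encodes ezrin and links membrane proteins to actin, was called higher at 1.37 ± 0.07, and of 7 epithelial potassium channels Kcnk1 was called higher at 2.98 ± 0.05. The sodium-proton and bicarbonate carriers had 0 of 6 genes called, with ratios from -0.30 to 0.60. With median centring 2 of the 6 were called higher, as were 5 of the 7 Cftr partners and 2 of the 7 potassium channels. The other chloride channels and exchangers then had 4 of 20 genes called higher and 1 lower. With normexp offset 0, Slc12a4 came to -3.59, Slc12a5 to -2.14, Lrrc8a to -3.71, Ano1 to 2.34 and Kcnk1 to 4.08. Ezr, at 1.41, changed little.

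**Figure D4:**
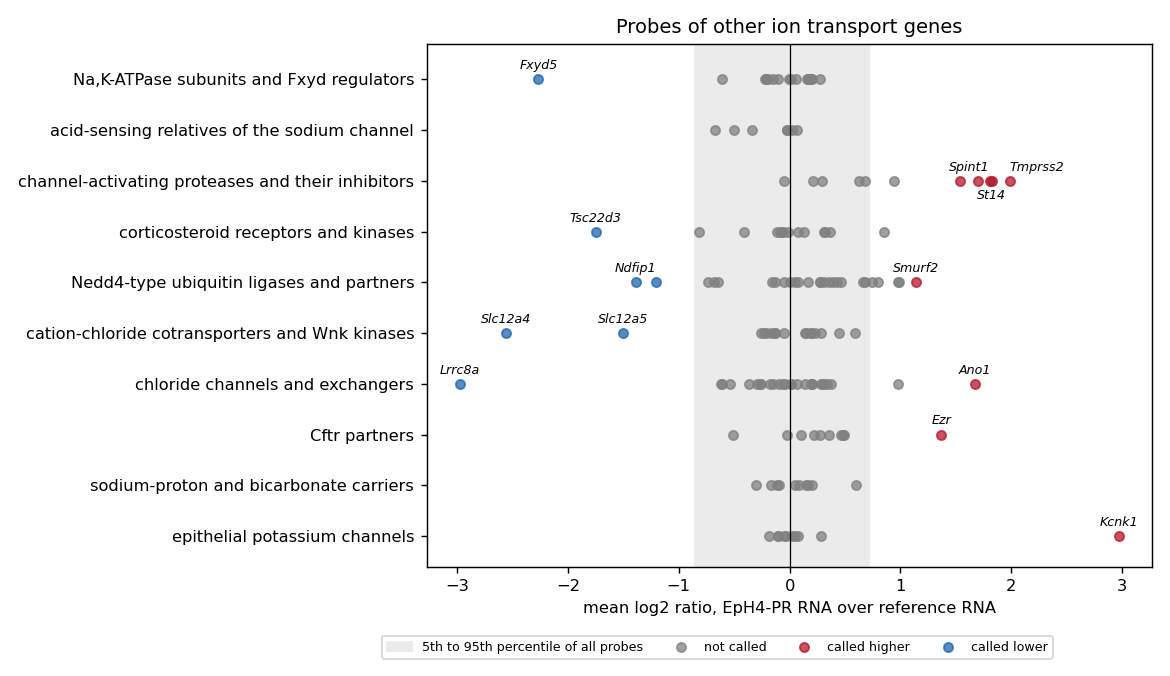
Mean log2 ratio of EpH4-PR RNA over reference RNA for each probe of the 10 ion transport lists. Points are probes, coloured by call, and the grey band spans the 5th to 95th percentile of all probes (-0.86 to 0.72); most probes lie inside the band, with Kcnk1 at 2.98 and Lrrc8a at -2.98 farthest out.

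The label of an epithelial line was checked on marker genes. Luminal epithelial markers were called higher for 8 of 9 genes, with Cdh1 at 4.29, Epcam at 1.26, Krt8 at 1.12 and 1.40 and Krt18 at 1.40 on the log2 scale, and the other gene, Krt19, was called lower at -2.62. Of 6 basal or myoepithelial markers, the keratin Krt14 was called higher at 2.08, Acta2 had 1 of 4 probes called lower at -2.01, and Krt5, Trp63, Myh11 and Oxtr were not called. The called Acta2 probe was well above background in EpH4-PR RNA on 1 of 3 arrays. Acta2 probe A_51_P450957, well above background on all 3, was at 0.60 (limma adjusted p = 0.000882) and not called. The remaining Acta2 probes were at -0.0011 and -0.16. All 6 fibroblast markers had a probe called lower, with Vim at -6.51 and Col1a1 at -5.03 by their lowest probes. The other Vim probe was at -0.14 and not called, and the other Col1a1 probes were at -2.16 and -0.26. Col3a1 also had uncalled probes at -0.23 and -0.14, and Pdgfra had one at -0.09. Blood markers had 2 of 4 genes called lower, and Ptprc probe A_52_P677117 was not well above background in EpH4-PR RNA on any array. None of 3 endothelial genes was called by limma, and Pecam1, at 0.01, was well above background on 1 of 3 arrays. The reference RNA mixes many sources, so a ratio also reflects how much of each cell type that mixture holds, and its part in the ratios of the transport genes was not tested. Pgr, the gene of the transfected receptor, had ratios of -0.11 and -0.19 by its probes, each well above background in EpH4-PR RNA on 1 of 3 arrays; whether these probes lie in the transfected sequence is not given in the sources used here.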

How the data were processed

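EpH4-PR total RNA (Cy5) was hybridised against reference RNA (Cy3) on 3 Agilent arrays, on 3 slides scanned on 1 day. Per the file headers, the authors deposited Feature Extraction 8.1.1.1 output with the intensity of each spot and its local background in both channels and the log10 of Cy5 over Cy3. A further deposited table compares 2 sides that its header does not name, with a log ratio, ratio, fold change, p-value and intensities for 587 probes. It holds the authors' own comparison, so its 5 columns of values were not used.

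Mean spot intensities were background corrected (normexp, offset 50) and loess normalized (span 0.3), with control and outlier spots (150, 18 and 3) given no weight and left out afterwards. Spots were averaged per probe and ratios tested against 0 with limma 3.58.1 in R 4.3.3, adjusted by Benjamini-Hochberg over 41174 probes. The number of arrays limits the precision. Probes of a gene were kept apart, and RefSeq accessions gave current symbols for 21445 of 23705 probes carrying one. Coordinates are left out because no genome build is named.

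The genes and lists were chosen with earlier results of these data known. Genes named were all probes of the 8 genes, the highest and lowest called gene of each list, set markers and Pgr. Outside that rule, St14, Spint1, Prss8, Furin, Tmprss4, Spint2 and Slc12a5 were named after their values were seen. So were the markers Krt19, Krt5, Acta2, Trp63, Myh11 and Oxtr. In the lists, 1 gene is not reported here. Alternatives covered offset, scaling, spot statistic, outlier and dim probe filters, the test and each array left out, with negative control background added after seeing the data. The script was tested on simulated data in which changed probes were drawn from brighter spots and the dyes did not differ. That test therefore does not cover dim probes or the choice of scaling.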

Additional observations from a re-analysis of the deposited data

How the results depend on the processing

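With a normexp offset of 0, 3125 probes were called higher and 3905 lower, with 2 and 1 of the transport probes and 15 and 11 of the other ion transport genes. Median centring gave 7031 higher and 708 lower, with 2 transport probes and 33 other genes higher and 4 lower, and the scanner software's log ratio gave 3616 and 3887, with 2 and 1 transport probes and 15 and 12 other genes. With any 1 array left out, 933 to 953 probes were called higher and 1585 to 1605 lower, with 1 and 0 transport probes and 7 to 8 and 6 other genes. The Scnn1a probe A_52_P139395, at -0.02, changed sign to 0.028 with offset 0 and to 0.12 in the scanner's ratio, and lay between -0.040 and 0.0012 with an array left out. Scnn1b changed sign to 0.055 in the scanner's ratio, Scnn1g to -0.20 with median centring and -0.18 in the scanner's ratio, and Sgk1 to 0.25 with median centring; the cause was not tested. Scnn1a probe A_51_P213691, Slc12a2, Nedd4l, Atp1b1 and Cftr probe A_51_P305896 kept their direction in every setting run. With the dim reference signal of most of these probes, offset and centring limit the size of their ratios. No paired analysis was possible because the arrays form 1 group.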

Other observations

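A further probe described by the array as Sgk-like, A_52_P178486, carries a transcript cluster identifier and no gene symbol. It read 71.4, 75.4 and 59.6 in EpH4-PR RNA and 110, 105 and 82.1 in the reference RNA, and was well above background in EpH4-PR RNA on no array. Its mean log2 ratio was 0.03 ± 0.10 (SD, n = 3).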
